A study of Mus musculus with 15 samples.

Results

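The imprinted growth regulators described here are 10 of the 24656 genes in the table, namely H19, Meg3, Dlk1, Peg3, Cdkn1c, Plagl1, Mest, Grb10, Ndn and Nap1l5. They were picked by symbol, with earlier results of these data known, and all 10 were found and passed the filter on low values. Their differences between groups are therefore a description of where they stand among all genes and no independent evidence. RNA with a poly(A) tail was sequenced from an ovary of 15 UM-HET3 mice (1 ovary per mouse), genetically heterogeneous animals that come from a cross of several inbred lines. The canagliflozin group held 5 mice aged 12 months that received the drug, an inhibitor of the glucose transporter SGLT2, from 6 to 12 months of age. The 12-month control group held 5 untreated mice of that age, and the 6-month control group held 5 untreated mice at the age at which the others entered the study. Mice had been assigned to the groups at random, and each library stands for 1 animal with its own genotype, which is not given. Values are the authors' normalised reads, with recovered depths of 8.47 to 13.05 M reads (1 M is 1000000 reads) in the canagliflozin group, 11.31 to 13.11 M in the 12-month controls and 11.75 to 13.63 M in the 6-month controls. None of the 12 oocyte, 11 granulosa, 6 theca and 9 luteal markers was at 0 in any library, and the 4 oviduct markers found summed to at most 303.

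An imprinted gene is expressed mainly from the copy inherited from 1 parent, because DNA methylation set in the germ line marks the copies differently. Many paternally expressed genes favour growth and many maternally expressed ones restrain it, and imprinted genes often lie in clusters under a shared control region. In the germ line these marks are erased and, in growing oocytes, set anew, while granulosa, theca, stromal and vascular cells carry the marks of any other body cell. Reads were not split by parental copy, so the values below are total transcript levels and say nothing of imprinting itself.

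The RefSeq promoter table (build GRCm38.p6) held entries for 8 of the 10 genes. The promoters of Peg3 and Nap1l5 are shown because these genes were called higher in comparisons below, and that of Meg3 because with Nap1l5 it gave most of the reads of the 10 genes. Each runs from 250 bases before to 50 bases after the annotated start, 5′ to 3′ on the strand of the gene. Capitals mark TGACGTCA, the palindromic cAMP response element, and GGGGCCCC, a palindrome to which the Plagl1 protein binds in vitro. Both motifs read the same on either strand and did not overlap each other.
Peg3, chr7:6730370-6730669, minus strand: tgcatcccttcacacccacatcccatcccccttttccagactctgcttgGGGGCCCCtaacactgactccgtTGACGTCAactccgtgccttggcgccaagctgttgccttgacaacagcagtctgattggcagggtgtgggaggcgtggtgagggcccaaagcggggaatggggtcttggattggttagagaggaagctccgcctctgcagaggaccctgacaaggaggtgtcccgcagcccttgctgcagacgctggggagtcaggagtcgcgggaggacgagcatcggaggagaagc
Meg3, chr12:109540746-109541045, plus strand: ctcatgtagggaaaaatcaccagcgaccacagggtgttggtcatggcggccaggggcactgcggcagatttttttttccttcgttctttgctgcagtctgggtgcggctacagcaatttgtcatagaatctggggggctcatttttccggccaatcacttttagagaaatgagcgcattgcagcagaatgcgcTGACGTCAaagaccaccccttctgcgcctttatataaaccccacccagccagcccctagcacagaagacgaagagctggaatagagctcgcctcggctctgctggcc
Nap1l5, chr6:58907077-58907376, minus strand: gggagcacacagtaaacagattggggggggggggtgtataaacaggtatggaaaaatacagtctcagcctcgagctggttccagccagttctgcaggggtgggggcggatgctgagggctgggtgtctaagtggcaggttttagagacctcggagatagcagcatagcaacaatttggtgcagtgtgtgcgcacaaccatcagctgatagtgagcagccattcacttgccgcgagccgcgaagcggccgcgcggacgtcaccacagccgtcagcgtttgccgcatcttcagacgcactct
TGACGTCA began 178 bases before the start of Peg3 and 57 bases before that of Meg3, and no other promoter entry of the 10 genes held it. In all, 586 of 32544 RefSeq promoters of this length (1.80%) held TGACGTCA. GGGGCCCC began 201 bases before the start of Peg3 and stood in 349 of 32544 promoters (1.07%). These matches describe letters in a window only.

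The 10 genes spanned a wide range of levels in the ovary. Per kilobase of exon, the mean of normalised reads was highest for Nap1l5, a nucleosome assembly protein-like gene, at 1987 ± 879 in the canagliflozin group, 1443 ± 638 in 12-month controls and 892 ± 289 in 6-month controls (SD, n = 5 each). Meg3, a long non-coding RNA, came next at 180 ± 60.6 in the canagliflozin group, 196 ± 74.2 in 12-month controls and 140 ± 20.2 in 6-month controls. The lowest library of Nap1l5 lay above the highest of Meg3 in each group. From Meg3 down to Peg3 in the canagliflozin and 12-month control groups, each gene's library range overlapped that of the next gene in order, so that neighbouring ranks there are not separate.

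At the low end stood Dlk1, a transmembrane protein related to Notch ligands, with 2.69 ± 0.660 per kilobase in the canagliflozin group, 4.76 ± 4.10 in 12-month controls and 19.1 ± 19.1 in 6-month controls. In 6-month controls Peg3 was lowest, at 13.9 ± 2.08 per kilobase, and overlapped Dlk1. Together the 10 genes took 0.0754 ± 0.0201% of reads in the canagliflozin group, 0.0776 ± 0.0201% in 12-month controls and 0.0600 ± 0.0056% in 6-month controls. Meg3 and Nap1l5 gave 72.2 ± 8.73% of these reads in the canagliflozin group, 67.9 ± 7.15% in 12-month controls and 59.9 ± 3.80% in 6-month controls.

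**Figure D1:**
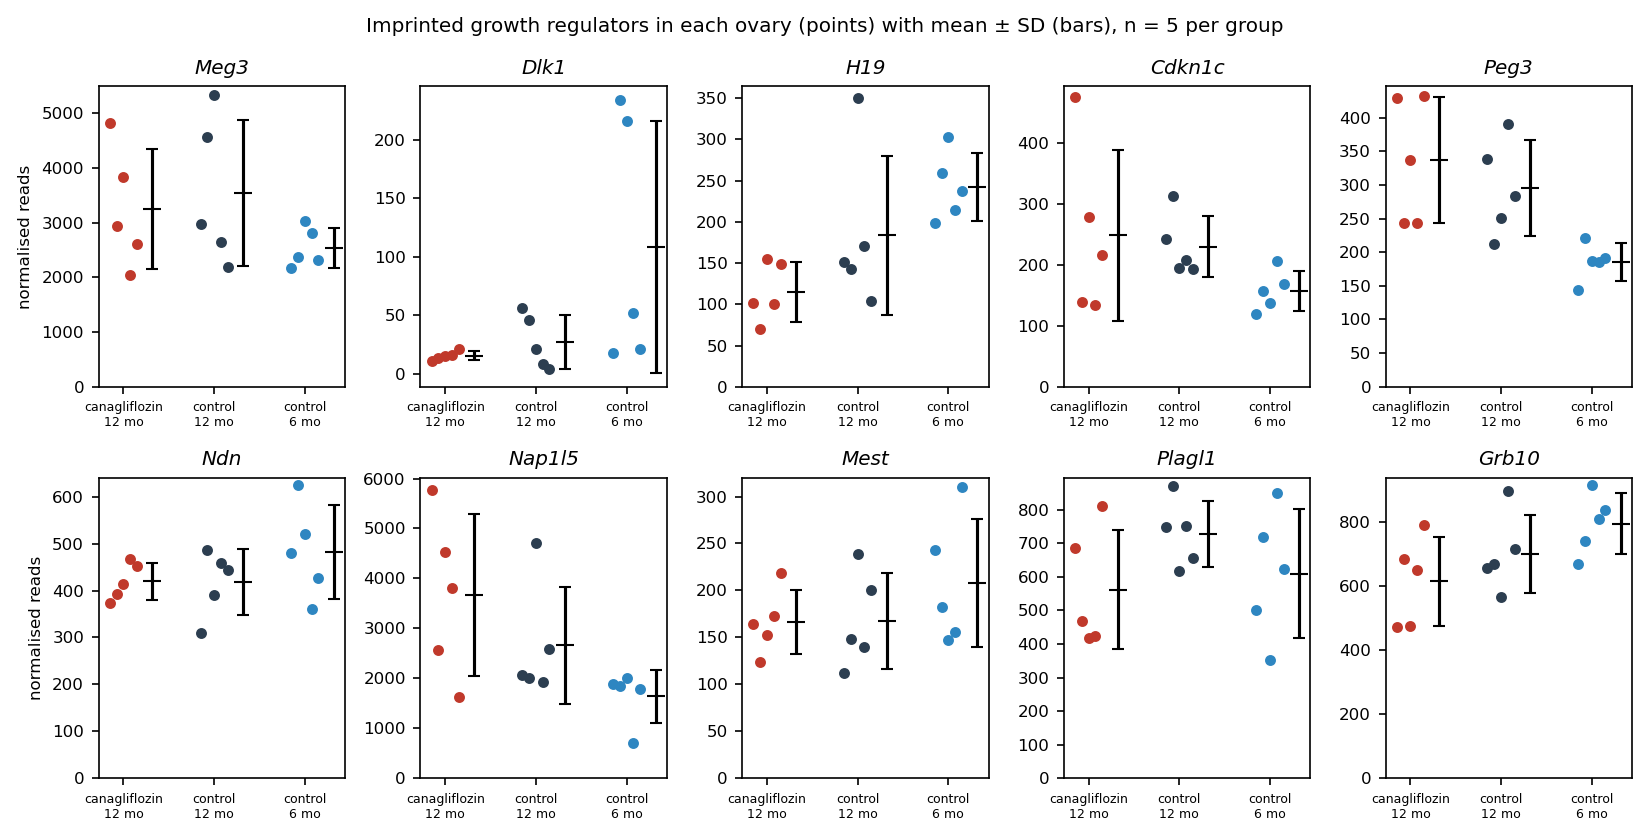
Normalised reads of the 10 imprinted growth regulators in each ovary (points), with mean ± SD (bars, n = 5 per group) and a linear axis of its own for each gene. H19 and Peg3 show no overlap between the canagliflozin group and 6-month controls, while Dlk1 in 6-month controls runs from 18.01 to 234.

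Canagliflozin against 12-month controls asks what the drug changed at the same age. None of the 10 genes passed the threshold of a limma adjusted p under 0.05 over the 17569 genes tested, against 0.00569% of all genes (1 gene). On the recovered reads edgeR called none of the 10, against 0.0512% of all genes. DESeq2 called none either, against 0.407% of the 14503 genes to which it gave an adjusted p. Of the 10, only H19 had an unadjusted limma p under 0.05, as did 9.2% of all genes. No member's groups were free of overlap, against 1.05% of all genes. The median log2 fold change was -0.07 over the 10 genes and -0.0019 over all genes tested, with 4 positive and 6 negative.

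Of the non-coding RNAs, H19 (ENSMUSG00000000031, chromosome 7) is maternally expressed, lies next to Igf2 and is the host of a microRNA. Its levels were 101, 70.0, 155, 100 and 149 in the canagliflozin group, against 151, 143, 351, 171 and 104 in the 12-month controls. Replicate 3 of the controls stood far above the rest, and without it the ranges were still interleaved. That library also had the highest sum of the 5 red cell markers, 18087 against at most 7442 in any other. Among other lists it had its group's highest granulosa sum, 97119, and lowest stromal fibroblast sum, 21495.5. Its macrophage sum, 2262, and fat cell sum, 2155, were the group's lowest too. The part of any of these in the level was not tested. The log2 fold change of H19 was -0.60 (SE 0.28, limma adjusted p = 0.538), and it was -0.34 without that library, with the adjusted p between 0.295 and 0.745 over all alternatives.

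Meg3, the maternally expressed RNA of the Dlk1-Meg3 cluster, had 4829, 2948, 3836, 2040 and 2609 in the canagliflozin group, against 2979, 4567, 5334, 2651 and 2187 in 12-month controls. These ranges were nearly the same, and the log2 fold change was -0.11 (SE 0.25, limma adjusted p = 0.905). Dlk1, its paternally expressed neighbour, which holds back fat cell differentiation, had 10.95, 13.4, 14.8, 15.9 and 21.02 in the canagliflozin group, against 56.3, 45.6, 21.1, 8.20 and 3.47 in 12-month controls. The drug group was narrow and lay inside the wide range of the controls, where the lowest library rests on 4 reads. The log2 fold change of Dlk1 was -0.25 with a wide SE of 0.78, and it was not called (limma adjusted p = 0.931). The part of depth in this spread was not tested.

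Among the genes that restrain growth, Cdkn1c encodes an inhibitor of cyclin-dependent kinases and Grb10 an adaptor that binds the insulin and IGF1 receptors. Cdkn1c had 476, 140, 278, 134 and 216 in the canagliflozin group, against 242, 313, 195, 208 and 194 in 12-month controls. The drug group held both the highest and the lowest of these 10 libraries, with a coefficient of variation of 56.3% against 21.9%. The log2 fold change of Cdkn1c was -0.03 (SE 0.28, limma adjusted p = 0.981), and its sign turned in edgeR and DESeq2. Grb10 averaged 614 ± 139 in the canagliflozin group and 701 ± 122 in 12-month controls (SD, n = 5 each), with a log2 fold change of -0.20 (SE 0.15, limma adjusted p = 0.684).

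Plagl1, a zinc finger transcription factor, had 685, 469, 419, 425 and 813 in the canagliflozin group, against 748, 870, 617, 753 and 656 in 12-month controls. The 3 lowest drug libraries lay below every control and the other 2 within the control range. Its log2 fold change of -0.42 (SE 0.23) had a limma adjusted p of 0.585. Nap1l5 had 5767, 2574, 4537, 3810 and 1634 in the canagliflozin group, against 2074, 2000, 4713, 1925 and 2590 in 12-month controls. Of the drug libraries, 3 were above 4 of the controls and 1 was below all of them, and the log2 fold change of 0.42 (SE 0.37) had a limma adjusted p of 0.719.

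Peg3, a zinc finger protein, Ndn, a member of the MAGE family that restrains cell proliferation, and Mest, a member of the alpha/beta hydrolase fold family, were also close in the groups. Peg3 averaged 337 ± 94.1 in the canagliflozin group and 295 ± 71.0 in 12-month controls, with a log2 fold change of 0.18 (SE 0.20). Ndn averaged 420 ± 39.3 in the canagliflozin group and 418 ± 70.2 in 12-month controls, and Mest 166 ± 34.4 in the canagliflozin group and 168 ± 51.0 in 12-month controls. Ndn and Mest both had a log2 fold change of 0.02, with SEs of 0.14 and 0.23.

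**Figure D2:**
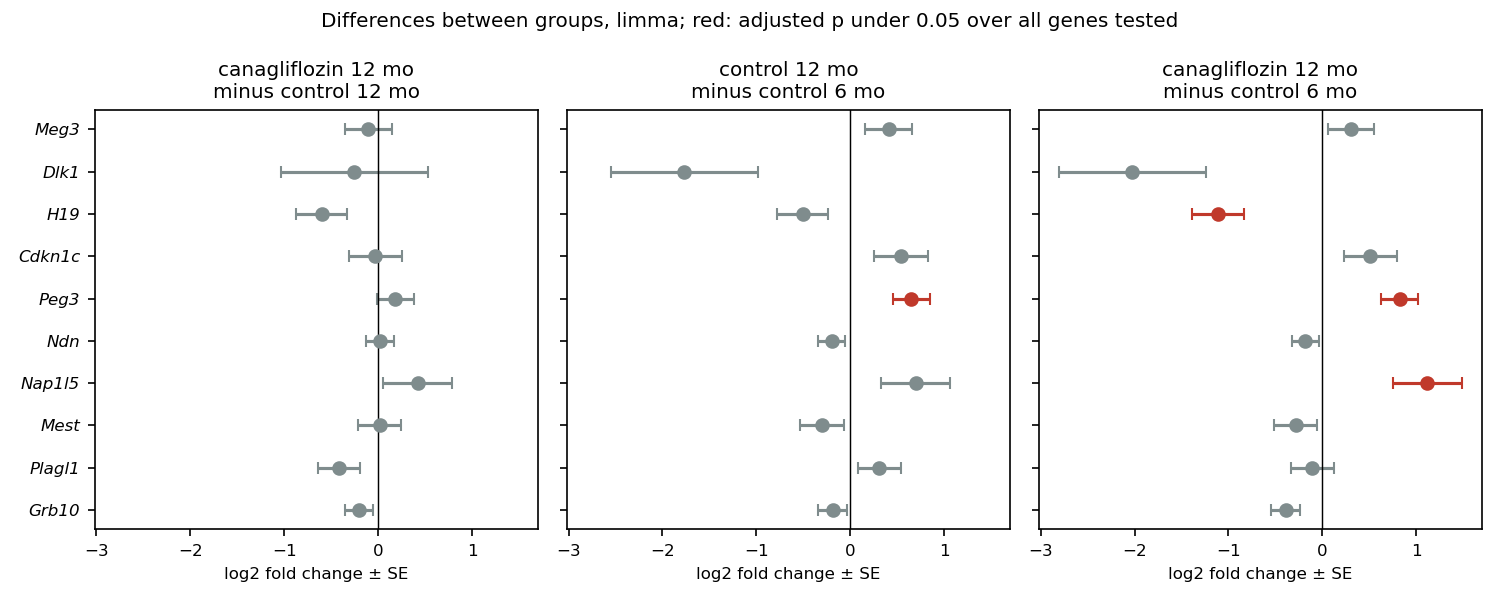
Log2 fold change ± SE of each gene in the 3 comparisons, from 1 limma fit on log2(value + 1) over 15 libraries. Red marks genes with an adjusted p under 0.05 over all genes tested. No gene is red for canagliflozin against 12-month controls, Peg3 is red for age, and H19, Peg3 and Nap1l5 are red for canagliflozin against 6-month controls.

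The 12-month against the 6-month controls set untreated mice of the older age against other, younger mice, and this difference is called the change with age. The labels' extraction protocol names only the 12-month groups. In any comparison with the 6-month group, a difference in handling therefore cannot be told apart from age. Peg3 was higher at 12 months and was the only one of the 10 genes called by limma, against 12.4% of all genes tested (5.4% higher and 7.01% lower). In edgeR too Peg3 was the only one called, against 12.7% of all genes. DESeq2 called Peg3 and Dlk1, against 17.5% of the 16887 genes to which it gave an adjusted p. The share of the 10 genes called is near the background and is not a result about the list. The median log2 fold change was 0.06 over the 10 genes and 0.0039 over all genes, with 5 positive and 5 negative. No member was free of overlap between these groups, against 13.7% of all genes. Some cell markers moved with age in the same libraries, and their part in any difference below was not tested. The summed level of the 10 stromal fibroblast markers ran from 21495.5 to 43611 in 12-month controls and from 49542 to 69025 in 6-month controls. That of the 10 smooth muscle and pericyte markers ran from 11449 to 17610.5 in 12-month controls and from 18345 to 23501 in 6-month controls. The 10 T and B cell markers summed to between 308 and 767 in 12-month controls and between 87.2 and 142 in 6-month controls, where 1 marker was at 0 in some libraries. In whole ovaries, fewer cells of a type and less RNA per cell cannot be told apart.

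Peg3 (ENSMUSG00000002265, chromosome 7) had 339, 212, 251, 391 and 283 in 12-month controls, against 143, 221, 187, 185 and 191 in 6-month controls. Only the lowest 12-month library fell under a 6-month one. The level was 1.57-fold higher at 12 months, with a log2 fold change of 0.65 (SE 0.20, limma adjusted p = 0.0413, edgeR 0.0338, DESeq2 0.0115). The call of Peg3 was lost with 8 of the 15 libraries left out in turn, at adjusted p from 0.0507 to 0.103. These were canagliflozin replicate 3, 12-month replicates 1, 4 and 5, and 6-month replicates 1, 3, 4 and 5, and the log2 fold change ran from 0.54 to 0.76 over all 15.

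Nap1l5 (ENSMUSG00000055430, chromosome 6) averaged 2660 ± 1177 in 12-month controls and 1644 ± 533 in 6-month controls (SD, n = 5 each), with a log2 fold change of 0.70 (SE 0.37, limma adjusted p = 0.240). The 12-month controls ran from 1925 to 4713, and replicate 3 stood far above the others. The 6-month controls had 1884, 1856, 2002, 701 and 1779, and replicate 4 stood far below the others. Nap1l5 lies inside a gene on the other strand, Herc3, which averaged 340 ± 41.9 in 12-month controls and 357 ± 68.9 in 6-month controls and was not called in any comparison. The library kit keeps strand, but whether counting used it is not given, so reads of such overlapping genes may be mixed.

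Dlk1 averaged 26.9 ± 23.2 in 12-month controls and 108 ± 108 in 6-month controls (SD, n = 5 each). Its range was 3.47 to 56.3 in 12-month controls, against 18.01, 234, 216, 51.7 and 20.8 in the 6-month libraries, which held 19 to 258 reads. Replicates 2 and 3 of the younger mice were high, and the other 3 lay within the range of the 12-month controls. Its log2 fold change of -1.77 (SE 0.78) was the largest in size among the 10 genes and missed the threshold (limma adjusted p = 0.157, edgeR 0.0965), while DESeq2 called it (adjusted p = 0.0273).

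H19 ran from 104 to 351 in 12-month controls, against 198, 259, 303, 215 and 238 in 6-month controls. All 5 of the younger ovaries were above 4 of the 12-month ones. Its log2 fold change with age was -0.51 (SE 0.28, limma adjusted p = 0.249), and without 12-month replicate 3 it was -0.77 (adjusted p = 0.0385). Meg3 averaged 3543 ± 1343 in 12-month controls and 2541 ± 366 in 6-month controls, and its log2 fold change of 0.41 (SE 0.25) had a limma adjusted p of 0.310. Cdkn1c averaged 230 ± 50.4 in 12-month controls and 158 ± 32.8 in 6-month controls (log2 fold change 0.54, SE 0.28, limma adjusted p = 0.235). The remaining genes had smaller differences, with log2 fold changes of 0.31 for Plagl1, -0.19 for Grb10, -0.20 for Ndn and -0.30 for Mest, and limma adjusted p from 0.403 to 0.453. Copg2, a gene on the other strand that overlaps Mest, averaged 524 ± 33.3 in 12-month controls and 575 ± 25.5 in 6-month controls and was not called either.

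Canagliflozin at 12 months against 6-month controls combines the drug with age and shares its samples with the other comparisons. Here 3 of the 10 genes were called, against 28.4% of all genes tested (13.5% higher and 14.9% lower), a share near the background. Peg3 and Nap1l5 were higher and H19 was lower in the canagliflozin group. edgeR called these 3 and Dlk1, against 29.4% of all genes, as did DESeq2, against 32.8%. The groups did not overlap for 2 of the 10 genes, H19 and Peg3, against 18.5% of all genes. The median log2 fold change was -0.14 over the 10 genes and 0.0097 over all genes. In the canagliflozin group the stromal fibroblast markers summed to between 20550.5 and 34442, the smooth muscle and pericyte markers to between 11101 and 20006 and the T and B cell markers to between 462 and 588. Their part in these differences was not tested.

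H19 averaged 115 ± 36.0 in the canagliflozin group and 242 ± 40.9 in 6-month controls (SD, n = 5 each), a log2 fold change of -1.11 (SE 0.28, limma adjusted p = 0.00731). Every drug library lay below every 6-month library, and the call held without each library in turn, at adjusted p from 0.00121 to 0.0202. Peg3 had 430, 243, 337, 243 and 432 in the canagliflozin group, against 143, 221, 187, 185 and 191 in 6-month controls. It was 1.77-fold higher in the canagliflozin group (limma adjusted p = 0.00575; log2 fold change 0.83, SE 0.20). All 5 drug libraries lay above all 5 of the younger ones, and the adjusted p stayed between 0.00316 and 0.0179 with each library left out.

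Nap1l5 was 2.17-fold higher in the canagliflozin group, at 3665 ± 1621, than in 6-month controls, at 1644 ± 533 (log2 fold change 1.12, SE 0.37, limma adjusted p = 0.0345). Of the drug libraries 4 lay above all of the 6-month ones and replicate 5 lay within them. The call was lost without canagliflozin replicates 1, 3 or 4 or 6-month replicate 4 (adjusted p from 0.0681 to 0.0868), with no filter on low values (0.0536) and with these 2 groups alone in the fit (0.0511). The summed level of the 11 granulosa markers, none of which was at 0, ran from 55089 to 104070 in the canagliflozin group, from 52076 to 97119 in 12-month controls and from 35403 to 59838 in 6-month controls. Its part in the difference of Nap1l5 was not tested.

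Dlk1 averaged 15.2 ± 3.73 in the canagliflozin group and 108 ± 108 in 6-month controls, with a log2 fold change of -2.02 (SE 0.78). It missed the threshold in limma (adjusted p = 0.0654) and passed in edgeR (0.0174) and DESeq2 (0.000539), and it also passed in limma without 12-month replicate 5 or 6-month replicates 1 or 5 (0.0344 to 0.0460). Grb10 averaged 614 ± 139 in the canagliflozin group and 794 ± 94.8 in 6-month controls (limma adjusted p = 0.0630; log2 fold change -0.39, SE 0.15), and passed without canagliflozin replicate 5 (0.0207). Cdkn1c, Meg3, Mest, Ndn and Plagl1 had log2 fold changes of 0.51, 0.30, -0.29, -0.18 and -0.11, with limma adjusted p from 0.192 to 0.753.

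Other imprinted genes place the 10 in their clusters. In a list of 23 other paternally expressed genes, 17 were tested. With age 1 was higher and 2 were lower, so 3 of 17 were called, against 12.4% of all genes tested. For canagliflozin against 12-month controls none was called by limma (2 of 17 had an unadjusted p under 0.05, against 9.2% of all genes). In a list of 23 other maternally expressed genes, 17 were tested, and with age 2 were higher and 2 lower, 4 of 17 against the same 12.4%. For canagliflozin against 12-month controls none was called by limma (1 of 17 had an unadjusted p under 0.05, against 9.2%). Against 6-month controls the canagliflozin group had 3 paternally expressed genes higher and 4 lower, and 4 maternally expressed genes higher and 5 lower. These are 7 of 17 and 9 of 17 genes, against 28.4% of all genes (13.5% higher and 14.9% lower). The median log2 fold change with age was -0.15 in the paternal list and 0.11 in the maternal list, beside 0.0039 over all genes.

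In the Dlk1-Meg3 cluster on chromosome 12, the maternally expressed RNA Rian lies downstream of Meg3. Rian averaged 1015 ± 284 in 12-month controls and 529.7 ± 61.1 in 6-month controls, with no overlap (log2 fold change 0.90, SE 0.24, limma adjusted p = 0.0204). Without 12-month replicate 3 it missed the threshold (adjusted p = 0.0527). In the canagliflozin group Rian averaged 981 ± 395 and ranged from 548 to 1494. So Rian was called with age where Meg3, its upstream neighbour, was not, and the difference between these genes was not tested.

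In the Peg3 cluster on chromosome 7, the maternally expressed zinc finger gene Zim1 was a low transcript that averaged 16.8 ± 6.81 in 12-month controls and 7.31 ± 1.16 in 6-month controls. Its libraries held 7 to 32 reads each, and its log2 fold change with age of 1.03 (SE 0.33) just missed the threshold in limma (adjusted p = 0.0537) and passed in edgeR (0.0409), in DESeq2 (0.0324) and in limma with these 2 groups alone (0.0329). It also passed without canagliflozin replicates 3 or 4 or 12-month replicate 1 (0.0279 to 0.0478). Zim1 averaged 19.02 ± 8.78 in the canagliflozin group, which against 6-month controls was a log2 fold change of 1.16 (SE 0.33, limma adjusted p = 0.0172). Without canagliflozin replicate 3 it was 0.95 and missed the threshold (adjusted p = 0.0514).

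On distal chromosome 7 lie H19 with Igf2 and, in the next cluster, Cdkn1c with Kcnq1ot1, the paternally expressed RNA that silences Cdkn1c on its own chromosome. Igf2, which encodes a fetal growth factor, had 139, 118, 224, 99.1 and 102 in the canagliflozin group, 126, 134, 420, 166 and 113 in 12-month controls, and 173, 211, 175, 187 and 186 in 6-month controls. The 12-month control replicate that was highest for H19 was also highest for Igf2. The log2 fold change of Igf2 was -0.37 (SE 0.30, limma adjusted p = 0.703) with canagliflozin at 12 months and -0.15 (SE 0.30, 0.790) with age, and the sign for age turned in edgeR (0.048) and DESeq2 (0.045).

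Kcnq1ot1 averaged 1111 ± 631 in the canagliflozin group, 723 ± 162 in 12-month controls and 386 ± 37.9 in 6-month controls. With age its log2 fold change was 0.88 (SE 0.27, limma adjusted p = 0.0459) without overlap, but with each library left out in turn 11 of 15 fits lost the call, with adjusted p up to 0.112. It was kept without canagliflozin replicates 1, 2 or 5 or 12-month replicate 5. The log2 fold changes of Cdkn1c and Kcnq1ot1 with age were thus both positive, at 0.54 and 0.88, but Cdkn1c was not called. The relation between these genes was not tested.

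In other clusters, the largest rise with age in these lists was that of Ppp1r9a, an actin-binding protein gene listed as maternally expressed. Parental labels are those of the lists, and the copy expressed in the ovary was not tested. Ppp1r9a averaged 1981 ± 299 in 12-month controls and 826 ± 78.9 in 6-month controls (log2 fold change 1.25, SE 0.11, limma adjusted p = 2.02e-05). Its neighbour Sgce, a paternally expressed sarcoglycan, fell by 0.43 on the log2 scale (SE 0.12, adjusted p = 0.0244). Igf2r, the maternally expressed receptor that clears the Igf2 protein, averaged 1431 ± 255 in 12-month controls and 1920 ± 129 in 6-month controls (log2 fold change -0.44, SE 0.13, limma adjusted p = 0.0320). The paternally expressed RNA Peg13 and its maternally expressed neighbour Trappc9 fell by 0.58 (adjusted p = 0.00470) and 0.39 (0.0166) on the log2 scale. Sgce missed the threshold without 12-month replicates 1 or 3 or 6-month replicate 2 (adjusted p up to 0.0678), and Igf2r without 12-month replicates 2 or 3 or any 6-month library (up to 0.0783).

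**Figure D3:**
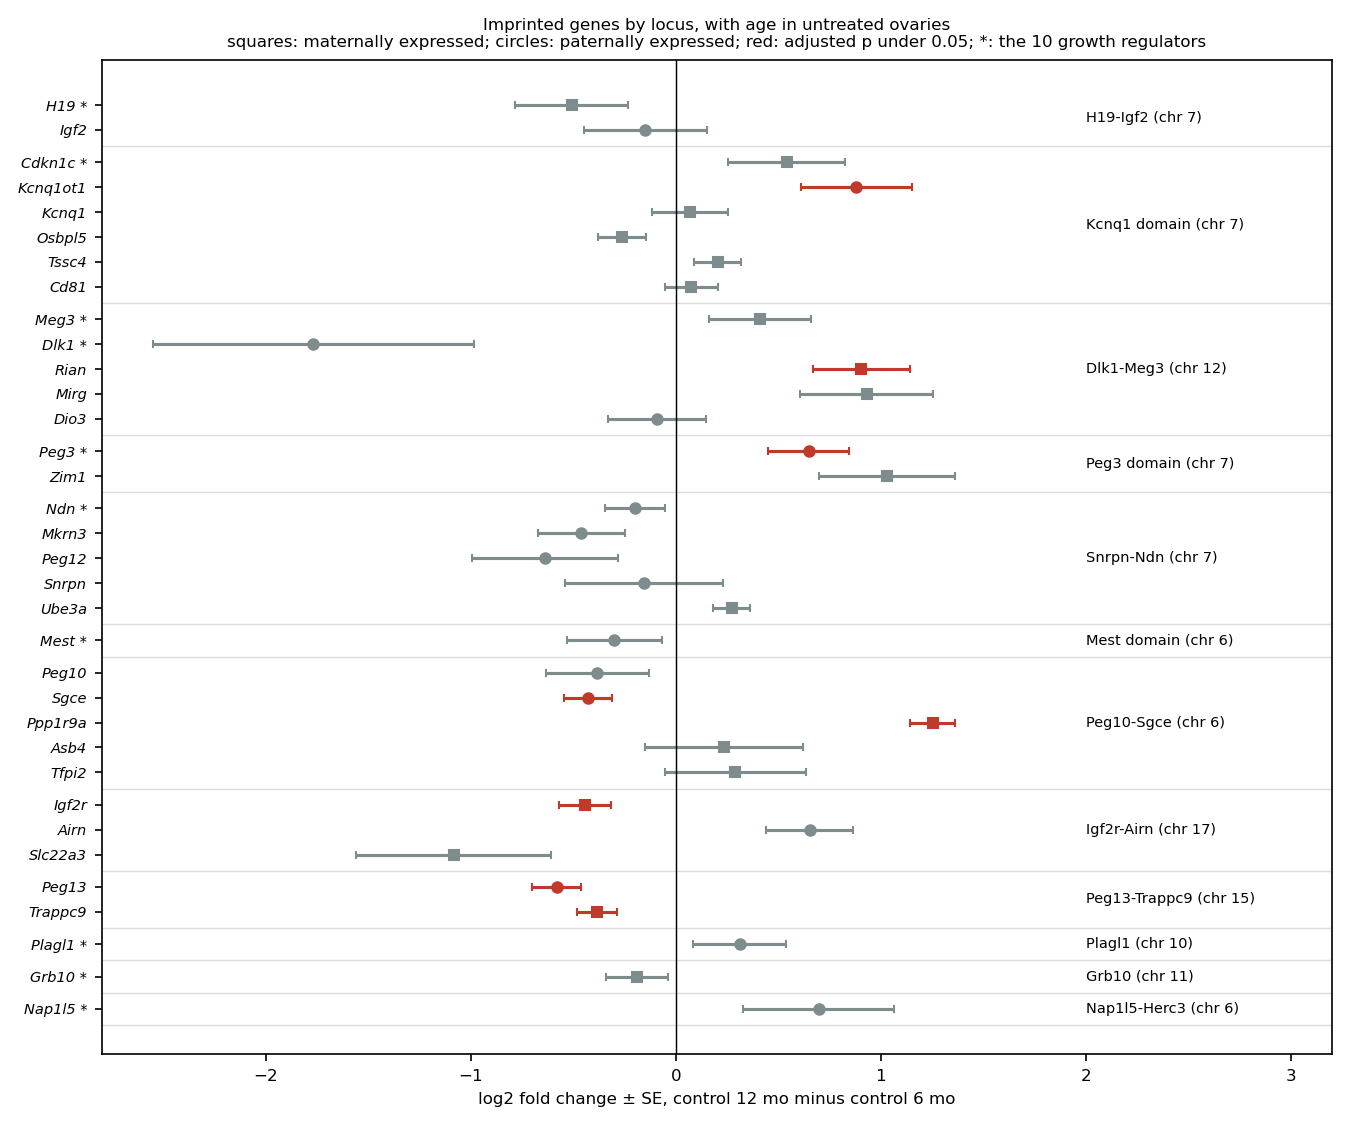
Log2 fold change ± SE of imprinted genes, 12-month minus 6-month controls, grouped by cluster with its chromosome. Squares are genes listed as maternally expressed and circles those listed as paternally expressed. Red marks an adjusted p under 0.05 and an asterisk marks the 10 growth regulators. Ppp1r9a, at 1.25, is the highest, and Dlk1, at -1.77, the lowest with the widest error.

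Proteins that maintain imprints were a list of 10 genes, of which 9 were tested. With age 4 were higher and 1 was lower, 5 of 9 against 12.4% of all genes. For canagliflozin against 12-month controls none was called by limma (2 of 9 had an unadjusted p under 0.05, against 9.2%). Zfp445, a zinc finger protein that binds methylated control regions, averaged 2281 ± 229 in 12-month controls and 1129 ± 100 in 6-month controls (log2 fold change 1.01, SE 0.09, limma adjusted p = 2.02e-05). Zfp57, which has the same task, averaged 874 ± 375 in 12-month controls and 483 ± 111 in 6-month controls (log2 fold change 0.80, SE 0.23, limma adjusted p = 0.0296). Arid4b and Smchd1, chromatin proteins, rose by 0.53 and 0.33 on the log2 scale (adjusted p = 0.00661 and 0.0278). Dnmt1, the enzyme that copies methylation after replication, fell by 0.30 on the log2 scale (adjusted p = 0.0331). The call of Zfp57 was lost without 6-month replicates 1, 2 or 3 (adjusted p up to 0.0739) and that of Smchd1 without 12-month replicates 1, 4 or 5 or 6-month replicates 2 or 3 (up to 0.0740). That of Dnmt1 was lost without 12-month replicates 1, 3 or 4 or any 6-month library (up to 0.0856). In the canagliflozin group Zfp445 averaged 2286 ± 154 and Zfp57 897 ± 185. Against 6-month controls 3 genes of the list were higher (Zfp445, Zfp57 and Arid4b) and 2 lower (Dnmt1 and Trim28), 5 of 9 against 28.4% of all genes. Smchd1 was not among them, with a log2 fold change of 0.0085. Its canagliflozin libraries (highest 475) all lay below the 12-month controls (lowest 480), a lack of overlap seen in 1.05% of all genes. No setting called that difference (adjusted p from 0.115 to 0.734).

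Partners of the growth regulators were a list of 15 genes, of which 14 were tested. With age 2 were higher and 1 was lower, 3 of 14 against 12.4% of all genes, and against 6-month controls the canagliflozin group had 2 higher and 2 lower, 4 of 14 against 28.4%. For canagliflozin against 12-month controls none was called by limma (2 of 14 had an unadjusted p under 0.05, against 9.2%). The insulin receptor gene Insr, whose protein Grb10 binds, averaged 1519 ± 137 in 12-month controls and 927 ± 107 in 6-month controls (log2 fold change 0.71, SE 0.12, limma adjusted p = 0.00134). The related receptor gene Igf1r rose by 0.50 on the log2 scale (SE 0.13, adjusted p = 0.0213). Irs2, a docking protein of these receptors, fell by 0.55 on the log2 scale (SE 0.17, adjusted p = 0.0392). The call of Igf1r was lost without 6-month replicates 2 or 3 (adjusted p up to 0.0602), and that of Irs2 without 12-month replicates 1, 3, 4 or 5 or 6-month replicates 2, 4 or 5 (up to 0.110). Cdk2, a kinase that the Cdkn1c protein inhibits, was lower in the canagliflozin group than in 6-month controls (log2 fold change -0.30, SE 0.08, limma adjusted p = 0.00792). With age its log2 fold change was -0.19 and was not called.

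The spread between ovaries of a group is a measure that group differences do not enter. Each gene's deviation from its group mean, on the log2 scale, was set against that of 14 cell marker scores over the 15 libraries. Of the 140 pairs, 4 had an adjusted permutation p under 0.05 and 13 an unadjusted one (100000 two-sided permutations within groups, Benjamini-Hochberg over 140 pairs). No pair had an adjusted p under 0.05 by Spearman's rho. Genes and markers were read from the same libraries and share their depth and composition, whose part was not tested.

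Nap1l5 followed the granulosa markers, with r = 0.91 (permutation p = 0.00026, adjusted 0.0182; rho = 0.70, permutation p = 0.0132, adjusted 0.230; n = 15). Without the 2 libraries farthest from the median score r was 0.83. With the dividing cell markers Nap1l5 had the same rho, 0.70, and r = 0.64 (permutation p = 0.0245, adjusted 0.38). Grb10 ran against the granulosa markers without passing, with r = -0.78 (permutation p = 0.00377, adjusted 0.088). The granulosa sum was 104070 and 99096 in canagliflozin replicates 1 and 3, where Nap1l5 was 5767 and 4537, and 97119 in 12-month replicate 3, where it was 4713. In 6-month replicate 4 the sum was 35403 and Nap1l5 was 701. So the stray libraries of Nap1l5 in both control groups were also the extremes of the granulosa sum. Granulosa cells surround the oocyte, and their number differs with the follicles in an ovary.

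Cdkn1c ran against the endothelial markers, with r = -0.92 (permutation p = 0.00043, adjusted 0.0201; rho = -0.73, permutation p = 0.00814, adjusted 0.230; n = 15; r = -0.78 without the 2 farthest libraries). Meg3 also ran against them, with r = -0.76 (permutation p = 0.00099, adjusted 0.0346; rho = -0.87, permutation p = 0.00063, adjusted 0.0882; n = 15; r = -0.64 without the 2 farthest). Other lists came close in size without passing. Cdkn1c had r = 0.77 with the surface epithelium markers (permutation p = 0.00728, adjusted 0.127) and rho = 0.77. Meg3 had r = -0.76 with the luteal markers (permutation p = 0.00369, adjusted 0.088) and rho = -0.73. The spread of Cdkn1c and Meg3 is thus not particular to the endothelial list. Canagliflozin replicate 1 had the lowest endothelial sum of its group, 5494, and the group's highest Cdkn1c and Meg3. Replicate 4 had the group's highest sum, 8634, and its lowest Cdkn1c and Meg3. Ndn followed the smooth muscle and pericyte markers, with r = 0.61 (permutation p = 0.00021, adjusted 0.0182; rho = 0.83, permutation p = 0.00162, adjusted 0.113; n = 15; r = 0.75 without the 2 farthest).

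The 4 called relations kept their sign without each library in turn, but the calls depended on some libraries. Without canagliflozin replicate 1 all 4 were lost (adjusted p = 0.0637 for Nap1l5, 0.103 for Cdkn1c, 0.158 for Meg3 and 0.0637 for Ndn). Without canagliflozin replicate 3 that of Nap1l5 (0.0833) and Cdkn1c (0.108), without canagliflozin replicate 4 those of Nap1l5, Cdkn1c and Ndn (0.0672 each), and without 12-month replicate 2 that of Cdkn1c (0.0610) were lost as well. That of Meg3 was lost without any of the 5 canagliflozin libraries, 12-month replicates 1, 4 or 5, or 6-month replicates 1 or 5, at adjusted p up to 0.158, and also after rescaling to the upper quartile (0.117). The 10 genes did not move as a block: over their 45 pairs the deviations had a median r of 0.07, from -0.65 for Grb10 with Nap1l5 to 0.62 for Meg3 with Cdkn1c, and 28 pairs were positive.

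**Figure D4:**
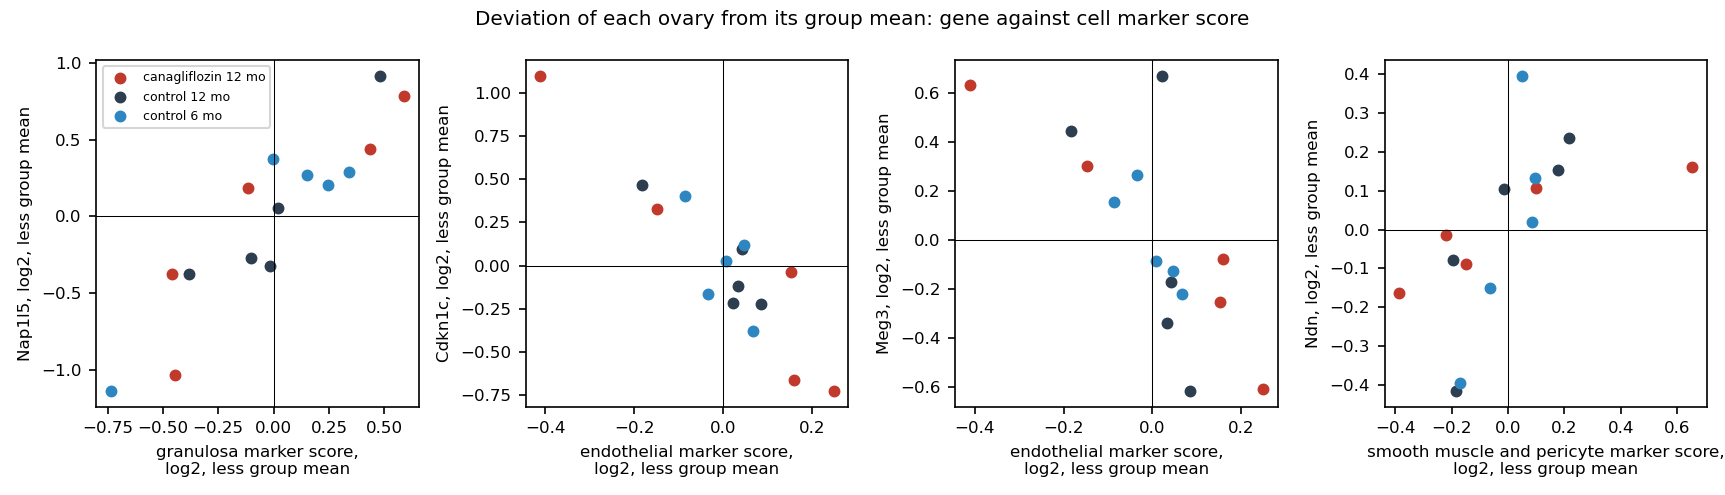
Deviation of each ovary from its group mean on the log2 scale for a gene (y axis) and a cell marker score (x axis), with 15 libraries coloured by group. Nap1l5 rises with the granulosa score (r = 0.91), Cdkn1c and Meg3 fall with the endothelial score (r = -0.92 and -0.76) and Ndn rises with the smooth muscle and pericyte score (r = 0.61).

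**Figure D5:**
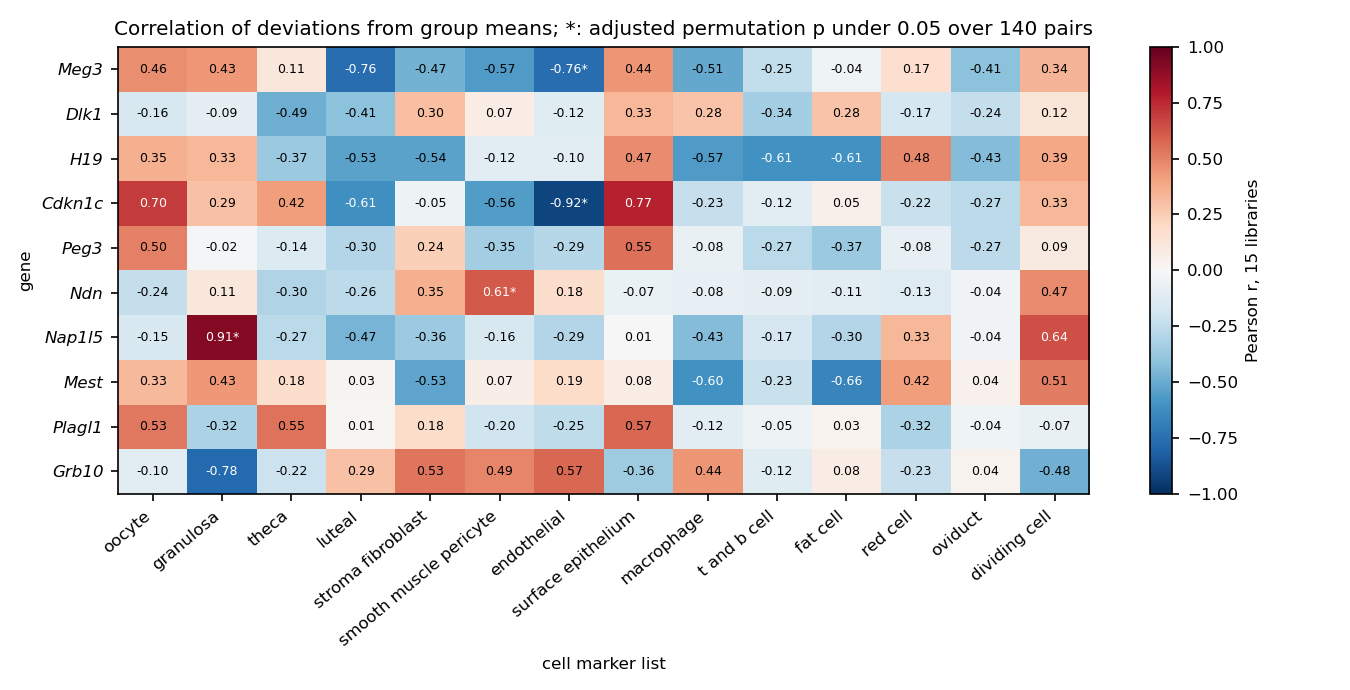
Pearson r between the deviations of the 10 genes (rows) and 14 cell marker scores (columns) over 15 libraries, red for positive and blue for negative. Asterisks mark the 4 of 140 pairs with an adjusted permutation p under 0.05. Most cells are pale, and the darkest are Cdkn1c with endothelial markers (-0.92) and Nap1l5 with granulosa markers (0.91).

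Outside the 10 genes, those whose deviations were most like the mean deviation of the 10 were Serpinb6b (r = 0.88), Hnrnpa1 (0.86), Dlgap5 (0.86), Mpp6 (0.84), Slbp (0.84), Nsmce2 (0.84), Cryl1 (0.83) and Morf4l2 (0.83), over 15 libraries. They were the top 8 of all non-members with a mean value of at least 50, so their r is a description of the choice.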

How the data were processed

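Polyadenylated RNA of whole ovaries was measured in 3 groups of 5 mice. The authors deposited a normalised signal for each gene in each library, and its steps show that gene reads were divided by a size factor per library. Partek 11.0 and mm39 stand in this series per the submitters' processing notes. The aligner, counter, annotation release and strand setting were not given in the sources used here. Reads were recovered from the steps of low values, and at least 99.99% of values per library were whole within 0.1 read. Recovered depth was 8.47 to 13.63 M reads, far above the depth stated in the labels, which was not resolved. The labels' extraction protocol names only the 12-month groups. No 2 libraries of the same group agreed within sampling noise, and pairs from different groups were not compared.

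Of 24656 genes, the 17569 that reached a value of 10 in 5 or more libraries were tested on log2(value + 1) with limma 3.58.1 (R 4.3.3; trend, robust; all 15 libraries, no covariate), with Benjamini-Hochberg adjustment over all of them and calls at adjusted p under 0.05. Fold changes on that scale understate changes of low genes. edgeR 4.0.16 and DESeq2 1.42.0 on recovered reads, pseudocounts of 0.5 and 5, a filter at 50 or none, upper quartile rescaling, fits of 2 groups, a replicate block and leaving out each library were alternatives. The fit was tested on simulated data. The members and lists were chosen with earlier results of these data known. Named genes are the members, Igf2, Igf2r and, of each list, called genes up to the 6 with the smallest p in each comparison. Herc3 and Copg2 were added for their position. Marker scores are mean log2 values per list. Exon lengths come from GENCODE M21, in which 23876 identifiers matched.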

Additional observations from a re-analysis of the deposited data

Results flagged for a closer look

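In 9 of 102 groups of 5 libraries checked, the highest or lowest library stood apart, with its gap to the nearest library over 0.71 of the group's range. For independent, normally distributed values chance gives about 1 in 20 such groups. The values here were not logged and the groups share libraries, so 9 of 102 cannot be judged by that rate. Among the 10 genes these were H19 and Nap1l5 in 12-month controls, at 351 and 4713 in replicate 3, and Nap1l5 in 6-month controls, at 701 in replicate 4. In the same 12-month replicate Igf2 was 420 and Zfp57 was 1535, the highest of their group. That library also had the highest summed red cell markers of all 15, 18087, over 5 markers of which none was at 0. It was its group's extreme for other lists as well, such as granulosa (highest) and stromal fibroblast (lowest). The part of these in the levels was not tested. The others were Igf2r in 6-month controls, highest at 2150 in replicate 3, Insr in 12-month controls, lowest at 1279 in replicate 2, Zfp445 in the canagliflozin group, lowest at 2021 in replicate 4, and Zrsr1 in the canagliflozin group, highest at 482 in replicate 4.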

How the results depend on the processing

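Pseudocounts of 0.5 and 5 and the stricter filter left every direction and call that they gave as it was. For canagliflozin against 12-month controls the number of genes called was 1, and it was 2 with no filter, 9 in edgeR, 59 in DESeq2, 0 with these 2 groups alone, 3 with the replicate block and 0 to 37 with each library left out (37 without canagliflozin replicate 5). Of the 10 genes, 1 was called with age, and 2 were in DESeq2, 0 with the replicate block and 0 to 2 with each library left out. Same-numbered libraries had correlated deviations from -0.30 to 0.25, over 0.1 in 3 of 15 pairs, so the numbers do not pair the mice. With the block Peg3 missed the threshold with age (adjusted p = 0.0693) and Kcnq1ot1 too (0.0586), and Grb10 passed (0.0441) and Trim28 missed it (0.0509) for canagliflozin against 6-month controls. Without the filter Dnmt1 (0.0507) and Kcnq1ot1 (0.0634) missed it with age, as did Dnmt1 after rescaling (0.0517) and Irs2 in the fit of 2 groups (0.0642).

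Some values near 0, none of them called, changed sign. For canagliflozin against 12-month controls, log2 fold changes in edgeR and DESeq2 were 0.11 and 0.11 for Cdkn1c, -0.013 and -0.0094 for Mest and 0.0050 and 0.0069 for Igf1r, and with age those of Igf2 were 0.048 and 0.045. With each library left out, log2 fold changes for canagliflozin against 12-month controls ran for Ube3a from -0.0058 to 0.10, Zfp445 from -0.044 to 0.058, Cdkn1c from -0.30 to 0.15, Impact from -0.031 to 0.22, Insr from -0.034 to 0.13, Ppp1r9a from -0.065 to 0.073, Trim28 from -0.11 to 0.0024, Igf1r from -0.11 to 0.080, Zim1 from -0.081 to 0.39, Meg3 from -0.27 to 0.061, Mest from -0.12 to 0.15, Ndn from -0.085 to 0.078, Rian from -0.28 to 0.082, Sgce from -0.14 to 0.0098 and Dlk1 from -0.77 to 0.15. For canagliflozin against 6-month controls they ran for Smchd1 from -0.053 to 0.043 and Plagl1 from -0.29 to 0.029. The causes were not tested. The lowest libraries of Dlk1 and Zim1 hold 4 and 7 reads. The coefficient of variation of Dlk1 was 24.5% in the canagliflozin group (mean 15.2), 86.0% in 12-month controls (mean 26.9) and 99.7% in 6-month controls (mean 108). Each group held 5 mice of mixed genotype, and the part of depth or genotype in the spread was not tested.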
